A study of Mus musculus with 30 samples.

Results

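The genes of MHC class II presentation were followed across 8 organs of healthy mice and of mice with collagen-induced arthritis (CIA). The 10 genes were taken by name, after Entrez gene numbers had been matched to symbols, from the 23013 gene rows of a single-cell RNA table made with Seq-Well, a method that captures single cells in microwells with barcoded beads. They were Cd74, H2-Aa, H2-Ab1, H2-Eb1, H2-DMa, H2-DMb1, H2-DMb2, H2-Oa, H2-Ob and Ciita. All 10 rows were present, and the rule used no measured value.

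All mice were males of the DBA1/J strain, with no engineered allele named in the labels, and the labels gave no age. The 4 CIA mice (S1, S2, S6 and S7) had received 100 µg of bovine type II collagen in complete Freund's adjuvant into the skin at the tail base and a booster on day 20 in incomplete adjuvant. The 4 controls (named H3, H4, H6, H7) had been given saline. Arthritis scores in the labels were 0 in healthy mice, 8 in S1 and S2, between 3 and 4 in S6 and 3 in S7. Blood, taken as mononuclear cells from a density gradient, came from 4 healthy and 3 CIA mice, as did lymph node. Joint came from H3 and S1, and the remaining organs (spleen, thymus, lung, skin and muscle) came from H6 and S1 alone. Dissected organ samples had been frozen before cells were prepared, and the study's methods name no freezing step for the blood cells.

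MHC class II molecules are surface proteins that show peptides from engulfed or internal protein to CD4+ T cells. An alpha and a beta chain pair in the endoplasmic reticulum with the invariant chain, encoded by Cd74, which blocks the peptide groove and steers the complex to endosomes. There H2-DM, a related pair of chains, exchanges the last invariant chain fragment for peptide, and H2-DO, expressed mainly by B cells, holds H2-DM in check. Ciita is the coactivator that switches the whole set on, together with RFX and NF-Y proteins bound at the promoters. B cells, dendritic cells and macrophages are the main cells that carry class II, and the class II type of an inbred mouse strain sets how readily it takes collagen-induced arthritis.

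The table held whole-number sums of molecule tags that had been smoothed over nearest-neighbour cells, so a value in 1 barcode contains tags of its neighbours, and the values are called units here. Levels are units per 1000000 (UPM) of the library total after trimmed-mean scaling, summed over the barcodes of 1 mouse and organ, which gave 26 sums from 30 libraries. Libraries held 27 to 934 barcodes and 217494 to 7886790 units, and 4590 of the 8282 barcode profiles were distinct within their library. A set of 19 libraries stood apart, in that under 25% of their detected genes had a highest value of 1 unit. They are called libraries with few rare genes here, and whether genes were lost from them was not tested. Only 13 barcode sequences were found in 2 or more libraries. Library titles ended in 2CIA in 17 libraries and in CIA in 13, and nothing in the labels says what the ending stands for. The ending went with the state: 12 of 14 libraries of CIA mice and 5 of 16 of healthy mice ended in 2CIA. Values within the 2CIA libraries are given beside the calls they change. Nothing says that the samples of a mouse were prepared apart, and smoothing lowers the spread inside a library, so barcodes were not used as replicates. The unit was the mouse in comparisons of state within an organ. In the organ comparisons and the interaction it was the mouse and organ sum, with no mouse term in the main fit, although 1 mouse gave up to 7 sums.

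The members other than Cd74 and Ciita lie together on chromosome 17, and coordinates are those of GRCm38.p6. H2-Oa was annotated at chr17:34092379-34095234, H2-DMa at chr17:34119693-34139101, H2-DMb2 at chr17:34143229-34151553, H2-DMb1 at chr17:34153191-34160229 and H2-Ob at chr17:34238905-34245908. The chains that reach the surface followed, with H2-Ab1 at chr17:34263227-34269418, H2-Aa at chr17:34282744-34287823 and H2-Eb1 at chr17:34305867-34316674. Ciita was at chr16:10480014-10531064. H2-DMb1 and H2-DMb2 are near-identical neighbouring copies, so reads could be assigned to either and their separate levels are uncertain. The annotation places Brd2 over part of H2-DMa, BC051537 over part of H2-Oa, Dexi over part of Ciita and a microRNA gene over part of Cd74, and strand handling of the counting was not given in the sources used here. H2-Aa, H2-Ab1 and H2-Eb1 differ between strains, and DBA1/J reads were aligned to a reference of another strain.

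Promoter sequence shows what several of these genes share. RefSeq promoters (250 bases before to 50 after the gene start, GRCm38.p6) were found for 7 of the 10 genes. The stretches below, each 5′ to 3′ on the gene's strand, run from 50 bases before the letters TGATTGG, an inverted CCAAT box of the kind that NF-Y binds, to 10 bases after them. Capitals mark TGATTGG and, where present upstream, AACNNATG, and both letter patterns were chosen after the promoters had been viewed.
H2-Aa, chr17:34287857-34287923, minus strand: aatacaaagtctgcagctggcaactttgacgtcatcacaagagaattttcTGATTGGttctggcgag
H2-Eb1, chr17:34305756-34305822, plus strand: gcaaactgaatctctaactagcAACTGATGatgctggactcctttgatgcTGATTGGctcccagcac
H2-DMb1, chr17:34153078-34153144, plus strand: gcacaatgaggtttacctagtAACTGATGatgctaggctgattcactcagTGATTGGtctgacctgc
H2-DMb2, chr17:34145107-34145173, plus strand: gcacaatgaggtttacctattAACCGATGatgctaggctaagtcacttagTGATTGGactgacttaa
H2-Oa, chr17:34092284-34092350, plus strand: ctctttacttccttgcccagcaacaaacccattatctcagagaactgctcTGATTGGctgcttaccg
H2-Ob, chr17:34238796-34238862, plus strand: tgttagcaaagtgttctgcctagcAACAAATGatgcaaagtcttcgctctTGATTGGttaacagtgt

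TGATTGG stood between 45 bases (H2-Oa) and 92 bases (H2-DMb2) before the start that the promoter entry uses. That start was also the annotated gene start for the other genes shown, but for H2-DMb2 it was position 34145249, which lies 2020 bases inside the gene as annotated. AACNNATG stood upstream of it in 4 of the 6 stretches, with 20 bases between the patterns in H2-Eb1, 21 in H2-DMb1 and H2-DMb2 and 18 in H2-Ob. Searched on both strands with no overlap counted, TGATTGG was in 7.82% of 32851 promoters, AACNNATG in 8.86% and both in 0.785%. The 2 promoter entries of H2-DMa, whose starts lie 3139 and 5825 bases inside the annotated gene, held neither pattern, which says only that these letters were not in that window. The stretches of H2-DMb1 and H2-DMb2 were identical at 58 of 67 positions. A match of letters is a description and no measure of binding.

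Across organs the invariant chain gene was detected in all 26 sums and spanned from 44.9 UPM in the healthy thymus to 11183 UPM in the blood of H4. In lymph node Cd74 was at 2761, 1960, 1551 and 3184 UPM in H3, H4, H6 and H7 and at 3162, 1464 and 2434 UPM in S1, S2 and S7. In blood it was at 3040, 11183, 3991 and 5416 UPM in H3, H4, H6 and H7 and at 2227, 2222 and 2867 UPM in S2, S6 and S7. The blood and lymph node ranges overlapped.

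In the organs with 1 mouse per state, Cd74 in spleen was at 5895 UPM in H6 and 3579 UPM in S1, and in muscle at 6429 and 2171 UPM. The H6 muscle sum held few muscle markers, as given below. Lung held 3025 UPM in H6 and 743 UPM in S1, and joint 1671 UPM in H3 and 528 UPM in S1. Skin held 111 UPM in H6 and 124 UPM in S1, and thymus 44.9 and 215 UPM. By the mean of log2(UPM + 10), Cd74 was ordered spleen (12.17), blood (11.88), muscle (11.87), lymph node (11.15), lung (10.56), joint (9.89), skin (6.99) and thymus (6.80). Neighbours in that order overlapped from spleen down to joint, and skin overlapped thymus. Skin and thymus, at 215 UPM or less, were below all other organs, which were at 528 UPM or more.

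**Figure D1:**
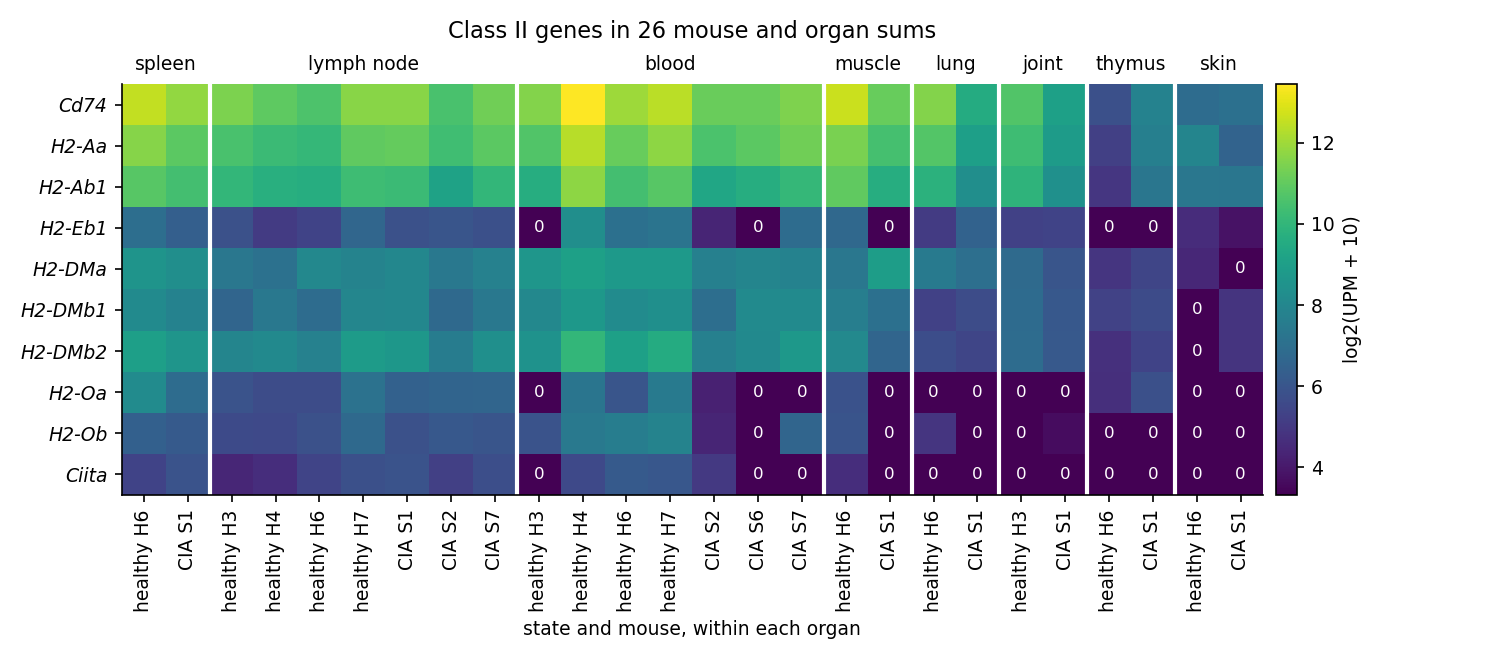
Level of each of the 10 genes (rows) in each of the 26 mouse and organ sums (columns), as log2(UPM + 10), with sums listed at 0 marked 0. Cd74, H2-Aa and H2-Ab1 were above 0 in all sums, and H2-Oa, H2-Ob and Ciita were listed at 0 in many sums outside blood, lymph node and spleen.

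The I-A chains, H2-Aa (alpha) and H2-Ab1 (beta), followed Cd74 closely, with Spearman correlations of 0.948 and 0.945 over the 26 sums, given as a description since sums of 1 mouse and of 1 run share depth and handling. H2-Aa was at 1477, 1200, 1056 and 2029 UPM in lymph node of H3, H4, H6 and H7 and at 2097, 1273 and 1888 UPM in S1, S2 and S7. Skin held 235 UPM of H2-Aa in H6 and 82.9 UPM in S1, while thymus held 28.0 and 196 UPM. H2-Ab1 was at 152 UPM in H6 skin and 149 UPM in S1 skin, against 568 to 1259 UPM in lymph node. Both genes were therefore lowest in the same organs as the invariant chain.

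H2-Eb1, the beta chain of I-E, was at 24.3 to 92.2 UPM in healthy lymph node and 45.8 to 54.2 UPM in CIA lymph node, was listed at 0 in both thymus sums, and was at 14.5 UPM in H6 skin and 3.95 UPM in S1 skin. Its partner gene H2-Ea, annotated as a pseudogene in the reference strain, spanned 42.2 to 119 UPM over healthy lymph nodes and 12.5 to 108 UPM over those of CIA mice.

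The genes of H2-DM, the peptide exchanger, were read organ by organ. H2-DMa was at 127 to 252 UPM in lymph node, at 171 UPM (H6) and 120 UPM (S1) in lung and at 153 UPM (H6) and 481 UPM (S1) in muscle. H2-DMb2 was at 179 to 465 UPM in lymph node but at 43.2 UPM (H6) and 33.6 UPM (S1) in lung and 110 UPM (H3) and 61.9 UPM (S1) in joint. H2-DMb1 was at 89.8 to 245 UPM in lymph node and at 28.8 UPM (H6) and 41.2 UPM (S1) in lung. For both beta genes the lung sums lay under every lymph node sum.

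The genes of H2-DO, H2-Oa (alpha) and H2-Ob (beta), were listed at 0 in several organs. H2-Oa was at 40.5 to 131 UPM in lymph node and at 285 UPM (H6) and 109 UPM (S1) in spleen, and it was listed at 0 in both mice in joint, lung and skin. In thymus, where Cd74 was lowest, H2-Oa was still at 16 UPM (H6) and 45.8 UPM (S1), the latter inside the lymph node range. H2-Ob was listed at 0 in both skin and both thymus sums and was at 37.2 to 101 UPM in lymph node. Ciita was at 11.2 to 49.6 UPM in lymph node and 31.2 UPM (H6) and 51.0 UPM (S1) in spleen, and it was listed at 0 in every sum of joint, lung, skin and thymus. Zeros were found in large libraries of both kinds: the thymus library of H6, at 7886790 units, is one of those with few rare genes and listed H2-Ob and Ciita at 0, and the larger joint library of S1, at 7881428 units, is not and listed H2-Oa and Ciita at 0. What depth or the shortage of rare genes adds to the zeros was not tested.

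**Figure D2:**
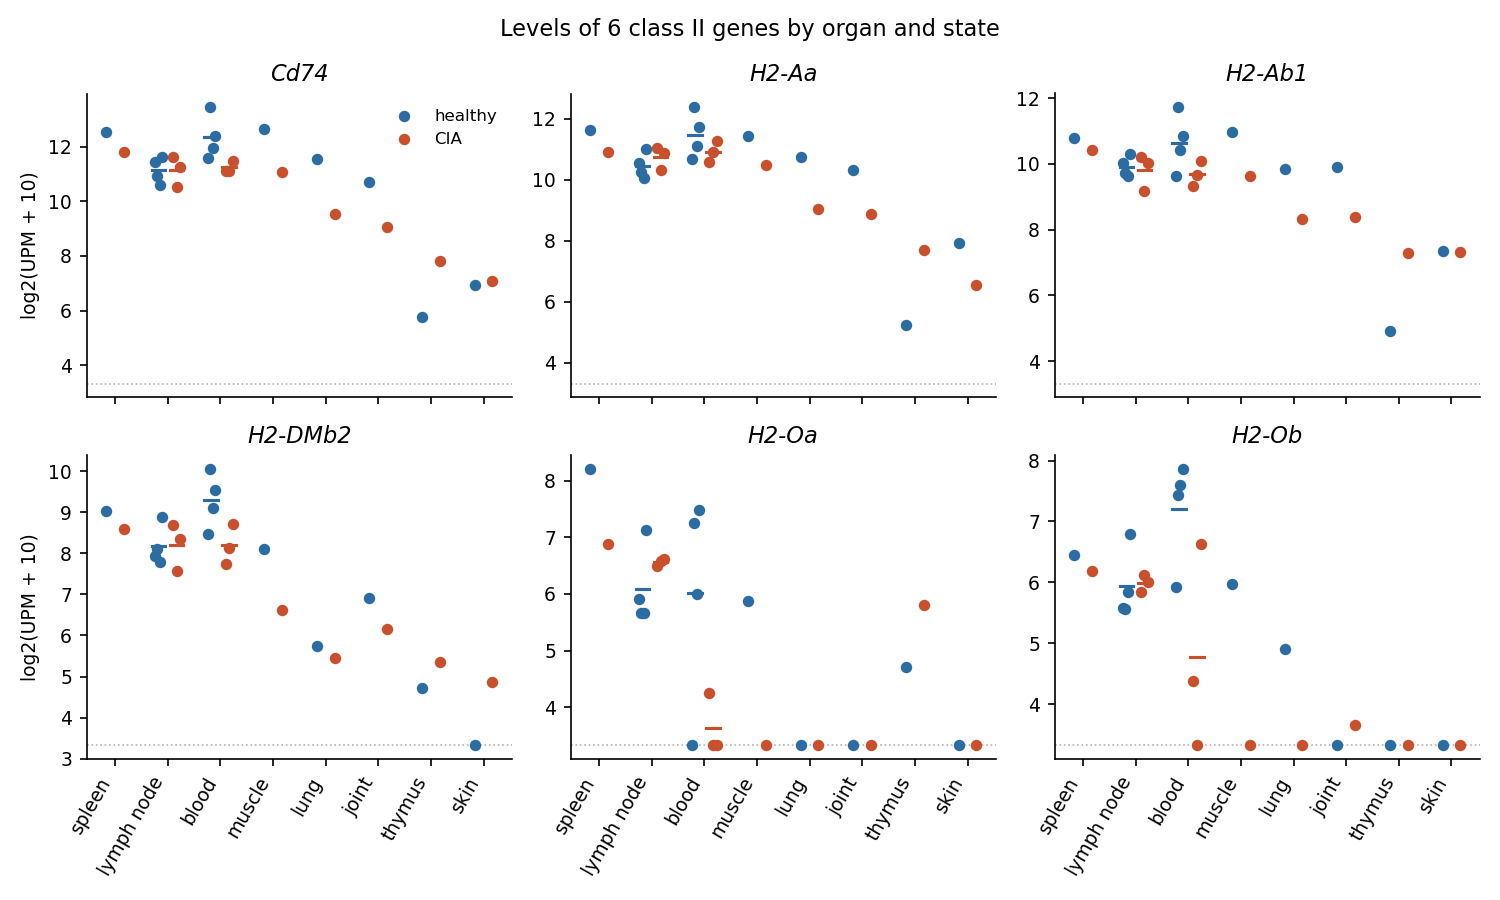
Levels of Cd74, H2-Aa, H2-Ab1, H2-DMb2, H2-Oa and H2-Ob by organ, as log2(UPM + 10) on the y axis. Points are mice, coloured by state, bars are means of the log2 values where an organ had more than 1 mouse, and the dotted line is 0 UPM. Skin and thymus are lowest for Cd74, and H2-Oa is on the dotted line in joint, lung and skin.

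Each organ was then compared with lymph node in 1 limma fit over all 26 sums with organ and state as terms, in which 5480 genes passed a mean of 25 UPM. Of the 10 members 9 passed, and Ciita did not. Calls were made where p, after Benjamini-Hochberg adjustment over all genes tested, was under 0.05. Outside blood and lymph node the organs had 2 mice each, so the error of their differences rests on the spread pooled over all organs. Outside blood, lymph node and joint both the 2CIA libraries alone and the fit without H6 leave S1 as the only sample of the organ, which is then assumed to vary like the other groups, and such values are given to show what the calls rest on, not as a check of them. In all organ comparisons fewer cells of a type and less RNA per cell cannot be told apart. Every lymph node and thymus library is among those with few rare genes, and no skin or spleen library is. Blood, joint, lung and muscle held libraries of both kinds. In skin and spleen the organ and the kind of library therefore cannot be told apart. The part of the kind of library in the organ differences was not tested.

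In skin 8 of the 9 members were called, all lower than in lymph node, against a background of 23.6% of genes called and 12% called lower. The log2 difference of Cd74 was -4.11 (SE 0.52, limma adjusted p = 1.7e-07), that of H2-Aa -3.32 (SE 0.52, limma adjusted p = 7.1e-06) and that of H2-Ab1 -2.51 (SE 0.53, limma adjusted p = 0.00058). H2-DMa differed by -3.73, H2-DMb1 by -3.21 and H2-DMb2 by -4.08, while H2-Oa and H2-Ob were called and listed at 0 in both skin sums. H2-Eb1, at -1.55, was not called (limma adjusted p = 0.25). The members' median difference, in which sums at 0 enter through the added 10 UPM, was -3.21 against a median of 0.17 over all genes. Among the 2CIA libraries alone, with 1 skin sample, 6 members were called, with Cd74 at -3.69 (limma adjusted p = 0.00064). Without mouse H6 4 members were called there, and Cd74 differed by -3.65.

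In thymus 7 members were called lower, against 13.8% of genes called and 10.4% called lower. Cd74 differed by -4.31 (SE 0.52, limma adjusted p = 1.3e-06), H2-Aa by -4.09 and H2-Ab1 by -3.72. H2-DMa differed by -2.46 (SE 0.51, limma adjusted p = 0.0012) and H2-DMb2 by -3.13 (SE 0.55, limma adjusted p = 0.00020). The other calls were H2-DMb1 at -1.83 (SE 0.54, limma adjusted p = 0.019) and H2-Ob, listed at 0 in both thymus sums. The members' median was -2.57, the value of H2-Ob with the added 10 UPM, against 0.11 over all genes. H2-Oa did not pass, at -0.99 (SE 0.88, limma adjusted p = 0.53), and neither did H2-Eb1 (limma adjusted p = 0.087). None of the 7 calls was made without mouse H6, where 1 gene of all genes was called and Cd74 differed by -2.81 (limma adjusted p = 0.16), or among the 2CIA libraries alone, again with 1 thymus sample, where Cd74 differed by -2.85 (limma adjusted p = 0.053).

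In lung and joint the members called in the main fit were H2-DM beta and H2-DO genes. In lung 27.6% of genes were called and 20.9% were called lower, and 3 members were lower: H2-DMb2 by -2.57 (SE 0.55, limma adjusted p = 0.00055), H2-DMb1 by -1.82 (SE 0.54, limma adjusted p = 0.011) and H2-Oa, listed at 0. In the same comparison Cd74 differed by -0.54 (SE 0.52, limma adjusted p = 0.48) and H2-DMa by -0.36 (SE 0.51, limma adjusted p = 0.66). Leaving out 1 mouse moved the Cd74 difference between -1.19 and 0.28, so its direction was not settled. Without mouse H6 none of the 3 was called, with H2-DMb2 at -2.42 (limma adjusted p = 0.060). Among the 2CIA libraries alone, with 1 lung sample, 2 were called, H2-DMb2 at -2.37 (limma adjusted p = 0.042) and H2-Oa, while H2-DMb1 was at -1.36 (limma adjusted p = 0.24).

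In joint 19.5% of genes were called and 9.2% were called lower, and the members called were H2-DMb2 at -1.63 (SE 0.55, limma adjusted p = 0.032), H2-Ob at -2.40 (SE 0.82, limma adjusted p = 0.033) and H2-Oa, listed at 0. Cd74 differed by -1.21 (SE 0.52, limma adjusted p = 0.10). With every library its own sample 6 members were called lower in joint, and 5 with each distinct profile counted once. Both counts take in members other than the H2-DM beta and H2-DO genes. With the mouse as a block no member was called in joint, and none was called without H3, H6 or S1. Among the 2CIA libraries alone 1 was called, H2-Oa, with H2-DMb2 at -1.28 (limma adjusted p = 0.0999) and H2-Ob at -2.18 (limma adjusted p = 0.079). Whether the members differed from each other in these organs was not tested. The members' medians were -0.76 in lung and -1.21 in joint, against -0.36 and 0.17 over all genes.

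Between lymph node and blood, spleen or muscle none of the 9 members was called. In blood 10.2% of all genes were called, and Cd74 differed by 0.73 (SE 0.35, limma adjusted p = 0.17) and H2-Oa by -1.30 (SE 0.59, limma adjusted p = 0.15). Among the 2CIA libraries alone H2-Oa was called lower in blood, at -2.64 (limma adjusted p = 0.0016). In spleen 6.31% were called, with Cd74 at 1.06 (SE 0.52, limma adjusted p = 0.28). In muscle 16.6% were called, with Cd74 at 0.77 (SE 0.52, limma adjusted p = 0.37), and among the 2CIA libraries alone, with 1 muscle sample, 1 member was called lower, H2-Oa, listed at 0 in that sample (limma adjusted p = 0.0078). The members' medians were 0.63 in blood, 0.78 in spleen and 0.07 in muscle, against -0.31, 0.22 and -0.17 over all genes.

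B cell markers were read in the same sums. Of 16 B cell markers, Cd79a and Ms4a1 were both listed at 0 in both skin and both thymus sums, where Cd74 was lowest. The summed B marker level there, 1254 to 2206 UPM in skin and 648 to 698 UPM in thymus, came to 86.8% or more from Ly6d, a gene that squamous epithelium and early lymphocytes also use. In lymph node the 16 markers summed to 1244 to 2900 UPM with 14 to 16 above 0, and in spleen to 2920 UPM (S1) and 3581 UPM (H6) with all 16 above 0. In lung they summed to 40.6 UPM (S1) and 744 UPM (H6) with 2 and 7 above 0, and in joint to 362 UPM (S1) and 412 UPM (H3) with 12 and 6 above 0. Single markers were as high there as in lymph node, among them Blnk at 301 UPM in the lung of H6 and Ebf1 at 131 to 189 UPM in joint. The part of B cell number in the organ differences was not tested. The labelled thymus carried all 7 thymocyte markers in both mice, at a summed 1535 and 2144 UPM, and 1 of the 5 thymic epithelial markers that the table holds. In the labelled muscle of H6, 3 of 9 muscle markers were above 0, at a summed 71.7 UPM. In that of S1 all 9 were, at 4692 UPM. B markers summed to 1817 UPM (H6) and 317 UPM (S1) in muscle, and neutrophil markers to 110212 and 16168 UPM. The muscle sum of H6 was thus low in muscle markers and rich in those of blood cells.

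The genes whose levels were most like the mean of Cd74, H2-Aa, H2-Ab1 and H2-Eb1 were found by Spearman correlation over the 26 sums among 5192 genes. In order, those reported were Cd79a (0.903) and Cd79b (0.901), the signalling chains of the B cell receptor, E330020D12Rik (0.863), Swap70 (0.858), Snx2 (0.848), H2-Ea (0.844), Ms4a1 (0.841), Igkc (0.841) and Igkj2 (0.835). Of these, Cd79a, Cd79b and Ms4a1 are on the B cell marker list. Among the members the correlation with Cd74 fell in the order H2-DMb2 (0.869), H2-DMb1 (0.806), H2-Ob (0.803), H2-DMa (0.756), H2-Eb1 (0.675), Ciita (0.637) and H2-Oa (0.603).

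Barcodes were next split by marker genes, with no class II gene among the markers. These classes share units with their neighbours and are shown as descriptions, with no test. No doublet caller was run here. The study's methods describe removing cells with outlying transcript counts, because of a risk of duplicates, in the joint analysis of the organs it selected. Whether the same was done for this table is not stated there. A sum needed 10 barcodes of a class from 1 mouse and organ. B-marker barcodes, 1056 of 8282 (12.8%), gave 14 sums from 7 mice and 4 organs, and 144 of them lay near a class limit.

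B-marker sums held Cd74 at a median of 5042 UPM (2831 to 13076), H2-Aa at 3063 UPM (2182 to 6305) and H2-Ab1 at 1913 UPM (1052 to 3887). H2-Oa was above 0 in 13 of 14 sums at a median of 167 UPM, H2-Ob in 14 of 14 at 121 UPM and Ciita in 13 of 14 at 81.1 UPM. The H2-DO pair and Ciita were thus found in nearly every B-marker sum. In T-marker sums, taken as background below, H2-Oa was above 0 in 10 of 11, H2-Ob in 8 and Ciita in 6. In plasma-marker sums they were above 0 in 5, 4 and 2 of 5. Detection of H2-Oa alone therefore did not set B-marker sums apart.

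Monocyte-macrophage barcodes carried Cd74 without the H2-DO genes in most sums. Their 7 sums held Cd74 at a median of 1323 UPM, from 549 UPM in S2 blood and 806 UPM in S6 blood through 1311 UPM in S1 spleen, 1323 UPM in S1 lung, 2355 UPM in S1 joint and 3758 UPM in H6 lung to 7652 UPM in H3 joint, the last from 12 barcodes. H2-Ab1 was at 217 to 4132 UPM and H2-DMa at 121 to 543 UPM. H2-Oa was above 0 in 1 of 7 sums, H2-Ob in 2 of 7 and Ciita in 1 of 7. All 3 were above 0 in S1 spleen, at 20.6, 6.17 and 22.6 UPM, and H2-Ob also in H6 lung, at 26.6 UPM. The other sums came from CIA blood, joint and lung. Whole joint and lung listed H2-Oa and Ciita at 0 in both mice, so class and organ cannot be told apart here. The lowest monocyte-macrophage sums were the ones from CIA blood, and no healthy blood sum reached 10 such barcodes. In joint and in lung the sum of the CIA mouse was below that of the healthy mouse, with 1 mouse per state and no test.

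Dendritic-marker barcodes gave 5 sums of 10 to 36 barcodes each. Cd74 was at 1159 UPM (S2), 1754 UPM (S7) and 5670 UPM (H3) in lymph node and at 2897 UPM (S1) and 5362 UPM (H6) in spleen. H2-Oa, H2-Ob and Ciita were each above 0 in 4 of 5 sums, with Ciita at 44.2 UPM or less. The sums of the healthy mice were above those of the CIA mice for Cd74, on 2 and 3 sums from different organs.

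Stromal and epithelial barcodes were lower. Cd74 was at 51.4 to 419 UPM in 4 fibroblast sums and 208 to 278 UPM in 3 endothelial sums, and H2-Oa, H2-Ob and Ciita were listed at 0 in all of these. Keratinocyte-marker sums held Cd74 at 97.0 UPM (S1) and 58.0 UPM (H6) in skin, at 1275 UPM in S1 joint and at 168 UPM in H6 spleen, an organ that should hold none of these cells. Thymocyte sums held Cd74 at 227 UPM (S1) and 54.7 UPM (H6), close to the levels of the whole thymus, with H2-Oa at 25.8 to 54.7 UPM and H2-Ob and Ciita listed at 0.

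T-marker barcodes are the background here, since mouse T cells make little or no class II and any units they hold can be shared from neighbours. Their 11 sums held Cd74 at a median of 1434 UPM (80.6 to 2643), H2-Oa at 27.8 UPM and Ciita at 2.44 UPM. Taken from the same mouse and organ, B-marker barcodes held more Cd74 than T-marker barcodes in 9 of 9 pairs, at a median fold of 4.69 (1.40 to 9.05), and more Ciita in 9 of 9 pairs. The median fold of Ciita was 5.70 over the 6 pairs whose T-marker sum was above 0. H2-Ob was higher in the B-marker sum in 6 of 9 pairs. Against dendritic-marker barcodes Cd74 was higher in B-marker sums in 5 of 5 pairs, at 1.19 to 2.93-fold, and H2-Aa in 4 of 5. Against neutrophil-marker barcodes B-marker sums held more Cd74 in 4 of 4 pairs, at 2.26 to 4.17-fold, more H2-Eb1 in 3 of 4 and more Ciita in 2 of 4. Of Cd74, neutrophil sums held 46.0 to 3494 UPM, and 5 of 7 monocyte-macrophage sums were inside the T-marker range, though no T-marker sum came from joint, lung or spleen. Within the joint of S1 monocyte-macrophage barcodes held 2355 UPM of Cd74, against 1275 UPM in keratinocyte, 278 UPM in endothelial, 184 UPM in neutrophil and 51.4 UPM in fibroblast barcodes. In the 1 organ with both, spleen of S1, B-marker barcodes held 6.48-fold the Cd74 of monocyte-macrophage barcodes.

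**Figure D3:**
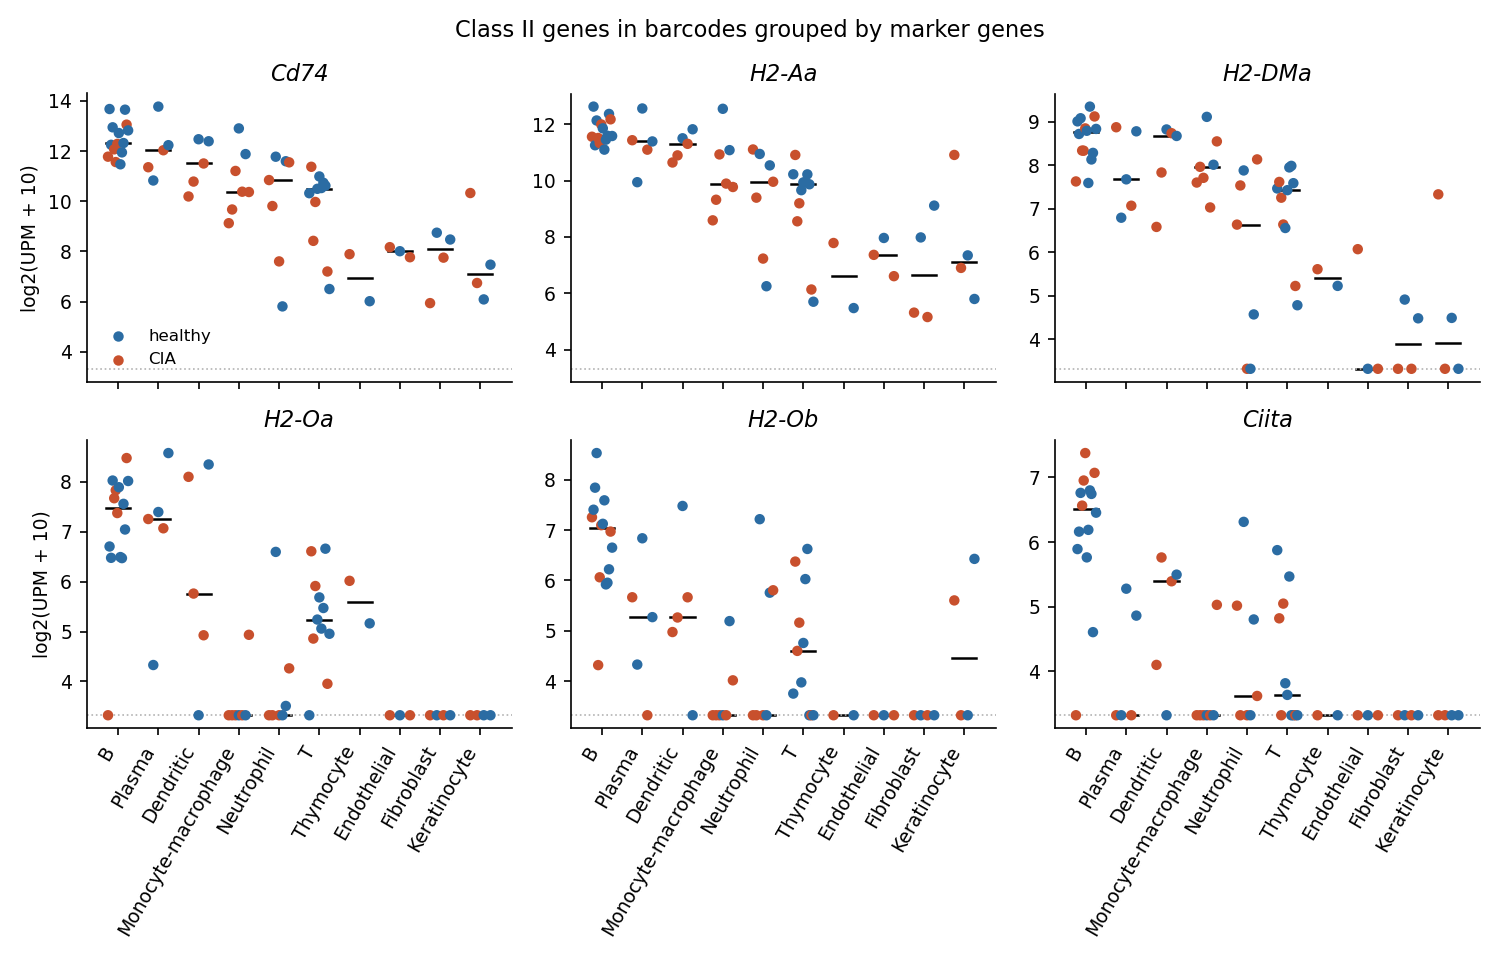
Levels of Cd74, H2-Aa, H2-DMa, H2-Oa, H2-Ob and Ciita by barcode class, as log2(UPM + 10) on the y axis. Each point is the sum of 1 class in 1 mouse and organ, bars are medians and the dotted line is 0 UPM. Monocyte-macrophage sums hold Cd74 and H2-DMa, and most of them lie on the dotted line for H2-Oa, H2-Ob and Ciita. They came from blood, joint, lung and spleen, and none from lymph node.

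The H2-DM beta genes were also set against each other by class. The ratio of H2-DMb2 to H2-DMb1 units, which tag counting leaves free of gene length, was above 1 in 14 of 14 B-marker sums, with a median of 1.98 (1.24 to 4.08). It was above 1 in 5 of 5 dendritic sums (1.38 to 2.75) and 5 of 5 plasma-marker sums (1.35 to 5.00). T-marker sums, the background, were above 1 in 7 of 9, with a median of 1.57, and neutrophil sums in 4 of 6, with a median of 1.31. In monocyte-macrophage sums the median was 0.839, with 0.472 (S6) and 1.06 (S2) in blood, 0.839 (S1) and 1.16 (H3) in joint, 0.810 (S1) and 1.53 (H6) in lung and 0.813 (S1) in spleen. The ranges of B-marker and monocyte-macrophage sums overlapped from 1.24 to 1.53, no test was made, and the near-identical sequences leave the split of reads between these genes uncertain.

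**Figure D4:**
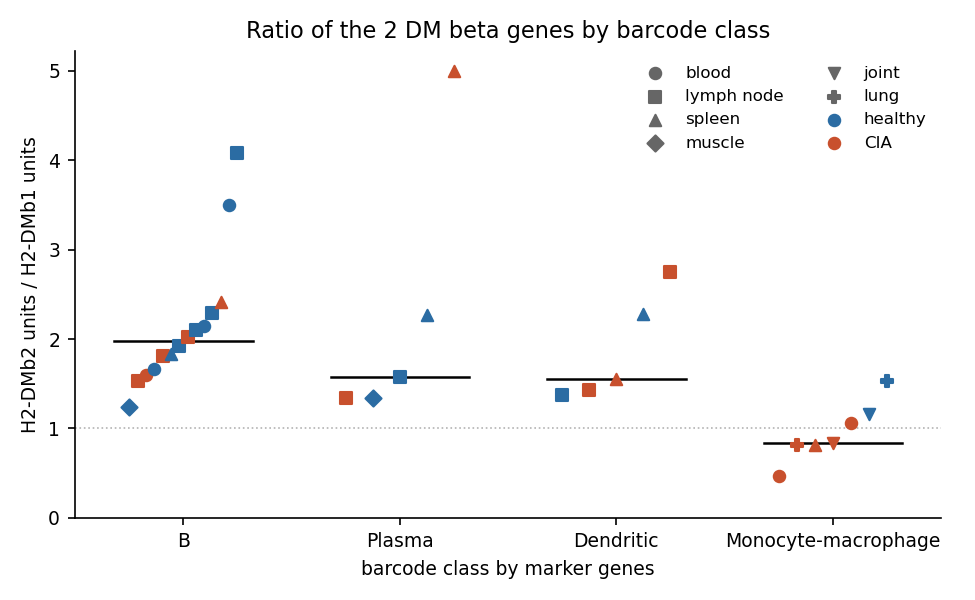
Ratio of H2-DMb2 to H2-DMb1 units per mouse and organ sum in B, plasma, dendritic and monocyte-macrophage barcodes. Bars are medians (1.98 for B and 0.839 for monocyte-macrophage) and the dotted line is a ratio of 1. All B-marker sums are above the line and 3 of 7 monocyte-macrophage sums are.

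The question of the study's design, what differs between arthritic and healthy animals, could be tested over mice in blood and lymph node. In blood no member was called, beside 0.167% of 4789 genes tested. All 10 members were lower in the CIA mean, and the median difference of the members was -1.10 on the log2 scale. It was -0.47 for all genes, so most genes were lower as well. Scaling to the total alone moved these medians to -0.73 and -0.10, and the 2CIA libraries alone, in which 8 members were tested, gave -0.35 and 0.41. All 3 CIA blood libraries and 2 of the 5 healthy ones ended in 2CIA.

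Cd74 averaged 5908 ± 3650 UPM (SD, n = 4) in healthy and 2439 ± 371 UPM (SD, n = 3) in CIA blood, which differed by -1.10 on the log2 scale (SE 0.58, limma adjusted p = 0.53). The values above show that each CIA mouse was under each healthy mouse. The same held for H2-DMa, which catalyses peptide exchange with its beta chain and was at 385, 536, 428 and 419 UPM in H3, H4, H6 and H7 and at 203, 235 and 215 UPM in S2, S6 and S7. Such separation was seen in 7.31% of genes, for no member when scaled to the total, and for H2-DMb2 as well under median-of-ratios scaling. H2-DMa differed by -0.98 (SE 0.53, limma adjusted p = 0.54).

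H2-Ob was at 50.6, 162, 184 and 222 UPM in the blood of H3, H4, H6 and H7 and at 10.8, 0 and 89.4 UPM in S2, S6 and S7. H2-Oa was at 0, 142, 54.0 and 169 UPM and at 9.0, 0 and 0 UPM in the same order. These had the widest differences, -2.42 (SE 0.91, limma adjusted p = 0.42) for H2-Ob and -2.38 (SE 1.07, limma adjusted p = 0.48) for H2-Oa, and mice of both states overlapped. The blood libraries of S6, S7 and H7 and the 2CIA library of H4 are among the 19 with few rare genes, and S6 and S7 listed H2-Oa and Ciita at 0. The part of that in these differences was not tested. H2-Aa differed by -0.56 (SE 0.54), H2-Ab1 by -0.97 (SE 0.53), H2-Eb1 by -1.62 (SE 1.10), H2-DMb1 by -0.55 (SE 0.56), H2-DMb2 by -1.09 (SE 0.53) and Ciita by -1.40 (SE 0.98). Among the 2CIA libraries alone Cd74 differed by -0.64 (SE 0.70), while H2-Aa at 0.12 (SE 0.64) and H2-Eb1 at 0.088 (SE 1.69) were opposite in sign to the full fit.

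H4 blood came from 2 libraries that stood apart, with Cd74 at 3843 UPM in the one ending in 2CIA and 12680 UPM in the one ending in CIA. The blood of H3 had 27 barcodes, with 7 distinct profiles. Without 1 mouse at a time the difference of Cd74 ranged from -1.56 to -0.73.

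Markers of several cell types were read in blood, by state. The summed level of the 16 B cell markers was 1252 to 6616 UPM in healthy mice, with 12 to 16 markers above 0, and 1142 to 2646 UPM in CIA mice, with 10 to 16 above 0. B-marker barcodes made up 0 of 27 barcodes in H3, which allows up to 11.1%, and 23.9%, 31.7% and 35.4% in H4, H6 and H7. They made up 0 of 173 in S2, which allows up to 1.73%, 14.5% in S6 and 23.7% in S7. The 3-count limits behind the zeros cover counting error only and take barcodes as independent. Only 7 of the 27 profiles of H3 and 71 of the 173 of S2 were distinct, so both limits are too low. Neutrophil markers summed to 1215 to 6021 UPM in healthy and 3311 to 106573 UPM in CIA blood, and monocyte-macrophage markers to 969 to 2308 UPM and 2973 to 20717 UPM, the latter without overlap. T cell markers summed to 1437 to 1956 UPM in healthy and 228 to 574 UPM in CIA blood, also with no overlap. Of single genes in blood, 7.31% were lower in every CIA mouse than in every healthy mouse and 2.34% were higher. Erythroid markers summed to 39325 to 1182810 UPM and 44553 to 632205 UPM, and the scaling of totals lets such a sum pass 1000000. The part of these levels in the class II values was not tested.

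**Figure D5:**
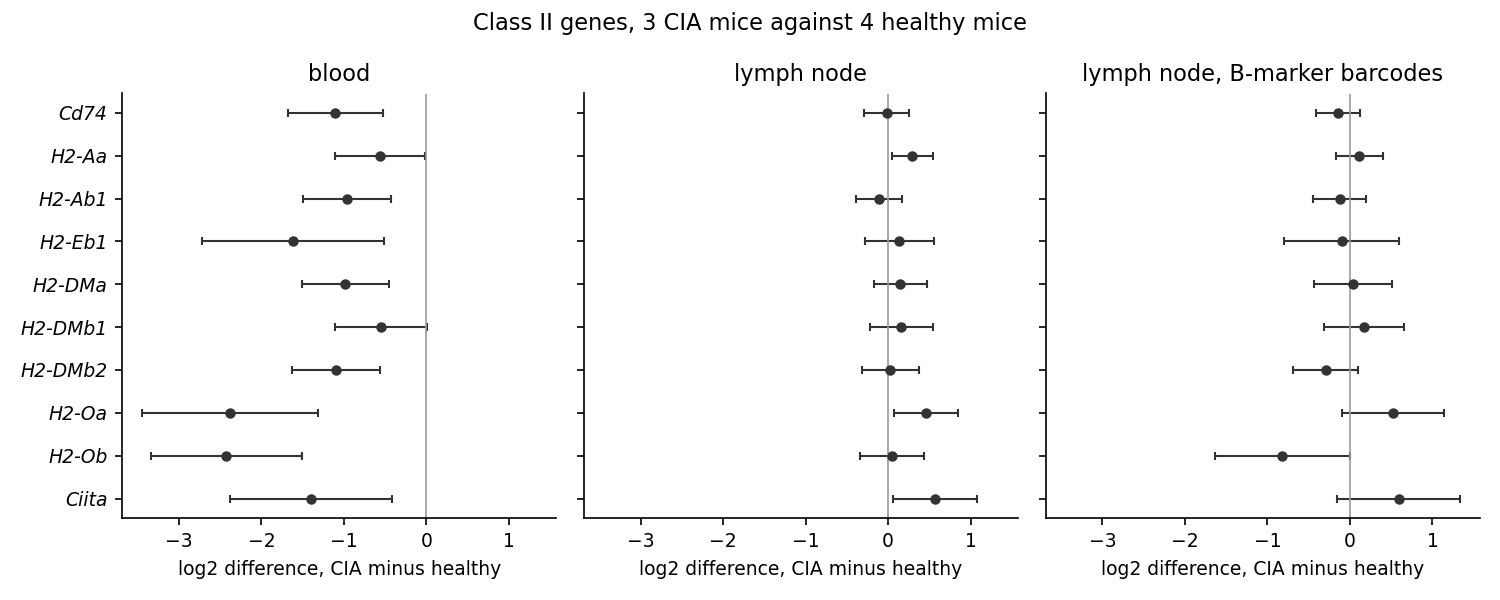
Log2 difference, CIA minus healthy, of each member in blood, lymph node and lymph node B-marker barcodes, with error bars of 1 SE from limma. All 10 blood differences lie below 0, and those of lymph node lie between -0.11 and 0.56.

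In lymph node no member was called, beside 0.0201% of 4964 genes, and the values of both states overlapped for every member. Over all these genes 2.56% were lower and 3.44% higher in every CIA mouse than in every healthy mouse. The members' median difference was 0.14, against 0.07 over all genes. Cd74 averaged 2364 ± 743 UPM (SD, n = 4) in healthy and 2353 ± 852 UPM (SD, n = 3) in CIA mice. The differences of the members ran from -0.11 (SE 0.27) for H2-Ab1 to 0.56 (SE 0.51) for Ciita, and the smallest limma adjusted p was 0.98. Among the 2CIA libraries alone Ciita differed by 1.88 (SE 0.94, limma adjusted p = 0.76) and H2-Aa by 0.76 (SE 0.39). H2-Oa, at 9.0 UPM or less in CIA blood, was in CIA lymph node at 79.7, 85.7 and 87.8 UPM in S1, S2 and S7, inside the healthy range of 40.5 to 131 UPM.

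The difference between the organs in the CIA effect was tested as an interaction, in which limma called 0% of 4949 genes, while 415 were under 0.05 before adjustment. The members' terms, lymph node minus blood, ran from 0.71 for H2-DMb1 to 2.85 for H2-Oa (SE 1.14, limma adjusted p = 0.51).

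Within lymph node B-marker barcodes alone, 18 to 128 barcodes a mouse, the members' median difference was -0.03 and none was called, beside 0.0807% of 4956 genes. Cd74 differed by -0.14 (SE 0.27, limma adjusted p = 0.96), H2-Ob by -0.82 (SE 0.82) and Ciita by 0.59 (SE 0.74). In the 2CIA libraries, with 3 CIA sums and 1 healthy sum, Cd74 differed by -0.91 (SE 0.42, limma adjusted p = 0.999).

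For the organs with 1 mouse per state there was no test. Members above 0 in either mouse are set beside the share of all such genes that was lower in S1. In spleen 9 of 10 members were at a lower level in S1 than in H6, beside 40.7% of genes, and in muscle 9 of 10, beside 51%. The H6 muscle sum held few muscle markers, as given above. Lung had 6 of 8 lower, beside 64.9% of genes, joint 6 of 8, beside 21.5%, and skin 4 of 7, beside 52.3%. In thymus all 7 members above 0 were higher in S1, Cd74 by 2.03 on the log2 scale, beside 46% of genes higher and 54% lower. These shares moved with scaling and with a filter at a mean of 25 UPM. They ranged from 34.8% to 58.8% of genes lower in S1 in spleen, 38.5% to 51% in muscle, 47.6% to 64.9% in lung, 21.5% to 65.1% in joint, 47.7% to 52.7% in skin and 50.7% to 61.8% in thymus, so the count of members in joint has no settled background. Under median-of-ratios scaling the split in spleen was 7 lower and 3 higher and that in skin 3 and 4. In joint it was 7 and 1 under that scaling and under scaling to the total. In all of these organs but joint the library of S1 ended in 2CIA and that of H6 in CIA, so state, mouse and library ending cannot be told apart.

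A list of 32 other class II pathway genes (regulators, endosomal proteases, ubiquitin ligases and signal components) was read in the same fits. No gene of it was called between states in blood (23 tested), lymph node (20), the interaction (22) or lymph node B-marker barcodes (21). In blood the lowest p were those of Ctsb, a lysosomal protease, at 2.48 (SE 0.82, limma adjusted p = 0.34), and of Creb1, at -2.93 (SE 0.97, limma adjusted p = 0.36). In lymph node Ifi30, a lysosomal thiol reductase, was at 1.42 (SE 0.59, limma adjusted p = 0.98).

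Between organs genes of the list were called in both directions. Of 22 genes tested, lung had 6 higher and 3 lower than lymph node, among them Ctss at 3.36 and Ctsl at 4.19, proteases that trim the invariant chain, Cst3, a cysteine protease inhibitor, at 2.64 and Spi1, a myeloid and B cell transcription factor, at 4.15. Joint had 5 higher and 2 lower, with Cst3 at 3.89, Ctsl at 4.71 and Marchf1, a ubiquitin ligase that removes class II from the surface, at -2.29. Muscle had 5 higher and 1 lower, blood 3 higher and none lower, and spleen 1 higher, Cst3 at 2.03. Thymus had 8 lower and none higher, with Ctss at -3.68, Marchf1 at -3.65 and Cd83 at -3.50. Skin had 2 higher, Ctsl at 4.73 and Cst3 at 1.96, and 6 lower, with Ctss at -3.20 and Cd83 at -3.90. In blood 120 of the 5480 genes were called higher and 438 lower. The shares called higher were 1.15% in spleen, 10.3% in joint, 6.7% in lung, 5.64% in muscle and 11.6% in skin. Those called lower were 5.16% in spleen and 10.9% in muscle, beside the shares given above for skin, thymus, lung and joint.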

How the data were processed

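Seq-Well libraries had been demultiplexed with bcl2fastq and aligned with STAR, and Picard and Drop-seq tools were used. The submitters' notes list GRCh38 and mm9 and the study's methods GRCm38. The deposited values are signal: molecule tag sums that the authors smoothed over nearest-neighbour barcodes, so no count model was used. The study does not say whether the smoothing was done within each library. Columns were matched to libraries by title, libraries of 1 mouse and organ were summed, and totals were scaled by trimmed means (TMM; 30% of log ratios and 5% of levels trimmed a side). Genes with a mean of 25 UPM or more were tested on log2(UPM + 10) with limma 3.58.1 (lmFit and eBayes with trend; R 4.3.3), with Benjamini-Hochberg adjustment over all genes tested. State was tested within organ, and organs were tested against lymph node in 1 fit of organ and state over 26 sums. Fold changes on this scale understate those of low genes. Barcodes were classed by marker lists. Tables were made with Python 3.11.15, numpy 2.4.6, pandas 2.3.3 and scipy 1.17.1, and figures with matplotlib 3.10.9. The tests were tested on simulated data. The members, lists and tests were chosen with earlier results of these data known. All 10 members are named, and of the pathway list at most 6 genes a comparison: those called, in order of p, or otherwise those with the 2 lowest p. Some genes that this rule takes in are not reported here. The same mouse gave blood and lymph node in 6 mice, as the titles show, with correlations of their deviations from group means of -0.27 to 0.15. Alternatives tried were other scalings, pseudocounts and filters, each library as its own sample, each distinct profile counted once, 2CIA libraries only, no trend, the mouse as a block and leaving out each mouse.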

Additional observations from a re-analysis of the deposited data

How the results depend on the processing

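Of the members' log2 differences under all alternatives, 657 kept their direction and side of the threshold, 4 passed it newly, 39 no longer passed it, 8 turned in direction and 1 moved. All 55 class levels stayed within their spread. With only the 2CIA libraries the number of members called became 1 in blood minus lymph node, 0 in thymus, 1 in joint and 1 in muscle, blood H2-Aa and H2-Eb1 turned to 0.12 and 0.088, and lymph node H2-Ab1 to 0.13. With every library as its own sample, 6 members were called in joint, 5 in thymus and 2 in lung, and H2-Ab1 in lymph node turned to 0.15, and with each distinct profile counted once 5 were called in joint. With the mouse as a replicate block 0 members were called in joint, and the block changed no other member count; the all-gene calls were 373 for blood, 159 for spleen, 534 for thymus, 924 for joint, 1434 for lung, 705 for muscle and 1019 for skin, against 558, 346, 755, 1067, 1510, 907 and 1291, and 1 against 0 for the interaction. Leaving out 1 mouse gave 0 to 7 members in thymus (0 without H6, 5 without S1), 0 to 3 in joint (0 without H3, H6 or S1), 0 to 3 in lung (0 without H6) and 4 to 8 in skin (4 without H6). It moved lymph node H2-Ab1 between -0.31 and 0.29, Cd74 in lymph node B-marker barcodes between -0.36 and 0.063 and lung Cd74 between -1.19 and 0.28. Calls over all genes ranged over the alternatives from 0 to 25 in blood by state (main 8) and 0 to 8 in lymph node (main 1). The causes were not tested, other than that leaving out a mouse or libraries leaves fewer samples. No paired analysis was possible because healthy and CIA mice are different animals in the comparisons of state. H2-Oa, H2-Ob and Ciita were listed at 0 in small and in large libraries, and what depth allows for them was not tested.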
